A study of Homo sapiens with 4 samples.

Results

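The BCL2 family comprises the proteins that decide whether the outer mitochondrial membrane is opened during apoptosis, and 10 of its genes were followed here across 4 conditions of the prostate cancer cell line LAPC4. They were PMAIP1, MCL1, BCL2, BCL2L1, BCL2L11, BAX, BAK1, BID, BIK and BAD, with every probe set annotated to them. They were taken by name, but with earlier results of these data known. They held 24 of the 22277 probe sets on the array and 10 of the 11963 genes. LAPC4 is an established human line that responds to androgen. All cells carried a lentiviral vector, as infected pools: either a GFP vector (control) or an shRNA against both β-TrCP genes, the F-box subunits BTRC and FBXW11 through which an SCF ubiquitin ligase binds its substrates. Each was grown for 72 hours either in 10% fetal calf serum with 100 pM of the synthetic androgen methyltrienolone (FCS) or in 10% charcoal stripped serum, which is depleted of steroids (CSS, the androgen ablation). The study's text describes the control partly as the inducible shRNA vector without doxycycline and the labels as GFP, so effects of doxycycline or vector cannot be told apart from those of the shRNA. There was 1 array per condition, so no difference between 2 arrays had a replicate check.

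Anti-apoptotic members (MCL1, BCL2 and BCL2L1, which encodes BCL-XL) hold the effectors BAX and BAK1 in check, and BH3-only members relieve that block or activate the effectors directly. The BH3-only proteins differ in whom they bind: NOXA, the product of PMAIP1, binds chiefly MCL1, BAD binds BCL2 and BCL-XL, and BIM (BCL2L11) and BID bind all of them. Much of this control acts on protein stability and phosphorylation, which mRNA does not show: MCL1 protein is short-lived, and β-TrCP is among the ligases that mark MCL1 and BIM for the proteasome.

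PMAIP1 was the member whose brightest probe set changed at least 2-fold. It was higher with β-TrCP shRNA in FCS, on that 1 array. With the same shRNA in CSS its log2 change from control FCS was 0.39, and 0.20 to 0.94 over the processing settings that gave a fold. The promoters of PMAIP1 and, for contrast, of BCL2L11, a BH3-only gene that stayed near the detection floor, are shown to set their sequence beside these values. The RefSeq windows (GRCh38.p14, from 250 bases before to 50 after the start site) were found for 8 of the 10 members. Capitals mark matches on either strand to the AhR-ARNT core GCGTG, the CRE half-site TGACG (reverse CGTCA) or the FOXO motif GTAAACA. The PMAIP1 window is chr18:59899746-59900045 on the plus strand and that of BCL2L11 is chr2:111120664-111120963, also on the plus strand.
PMAIP1: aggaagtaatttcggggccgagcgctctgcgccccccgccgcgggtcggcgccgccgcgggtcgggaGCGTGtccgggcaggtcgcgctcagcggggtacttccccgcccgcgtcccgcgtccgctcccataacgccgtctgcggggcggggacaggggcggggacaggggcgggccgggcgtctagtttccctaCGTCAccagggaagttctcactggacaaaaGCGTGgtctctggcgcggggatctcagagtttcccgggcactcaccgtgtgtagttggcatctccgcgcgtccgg
BCL2L11: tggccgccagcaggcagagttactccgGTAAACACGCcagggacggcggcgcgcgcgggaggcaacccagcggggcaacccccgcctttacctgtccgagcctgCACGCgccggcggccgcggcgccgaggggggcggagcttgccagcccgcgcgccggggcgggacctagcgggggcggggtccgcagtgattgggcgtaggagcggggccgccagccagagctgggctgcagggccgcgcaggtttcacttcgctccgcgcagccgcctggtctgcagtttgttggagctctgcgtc
The PMAIP1 window was 71.3% G and C, and held GCGTG at -183 and -25 and the CRE half-site at -55, counted from the start site. The BCL2L11 window was 74.7% G and C, and held GTAAACA at -223, overlapping a GCGTG match at -218, and a second GCGTG match at -146. The full CRE TGACGTCA and the E-box CACGTG were in neither window. Among 35116 RefSeq promoters of this length, 36.5% held GCGTG, 24.6% TGACG, 1.85% TGACGTCA, 7.26% CACGTG and 3.42% GTAAACA. A match describes these letters and no binding.

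Values below are log2 signals after quantile normalization, with signals under 20 set to a floor of 20 (log2 4.32). A gene is represented by its brightest probe set, and a change of at least 2-fold is counted by size alone. Of the 24 probe sets, 21 reached 20 on at least 1 array, and all 10 members kept at least 1 probe set. The shRNA CSS array stood apart: its Pearson correlations with the other arrays were 0.934 to 0.936, against 0.979 to 0.989 among those, and the robust SD of log2 ratios over all probe sets was 0.501 to 0.519 in comparisons with it, against 0.185 and 0.189 without it. The target FBXW11 (β-TrCP2) read 8.02 in control FCS, 8.19 in control CSS, 5.02 in shRNA FCS and 4.68 in shRNA CSS, low on both shRNA arrays. BTRC (β-TrCP1) read 4.50 and 4.64 in the control arrays and lay at the floor with the shRNA, too close to it for a fold. Of 8 luminal prostate markers 6 were kept, all above the floor on all 4 arrays. Against control FCS, 4 were higher and 2 lower in control CSS. KLK3 and KLK2 were higher there, by 0.735 and 0.697 on the log2 scale, and changed by -0.981 and -1.232 in shRNA FCS. TMPRSS2 was lower in both, by -0.483 and -0.552. KLK3 and KLK2 thus did not fall with CSS in control cells, and how far CSS lowered androgen signaling was not tested. Of 8 fibroblast markers 5 were kept, with 3, 2, 2 and 4 above the floor in control FCS, control CSS, shRNA FCS and shRNA CSS and log2 summed levels of 6.90, 6.82, 6.84 and 7.47. Of 8 leukocyte markers 3 were kept, with 0, 0, 0 and 1 above the floor, and PTPRC, which marks leukocytes, did not reach 20 on any array.

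**Figure D1:**
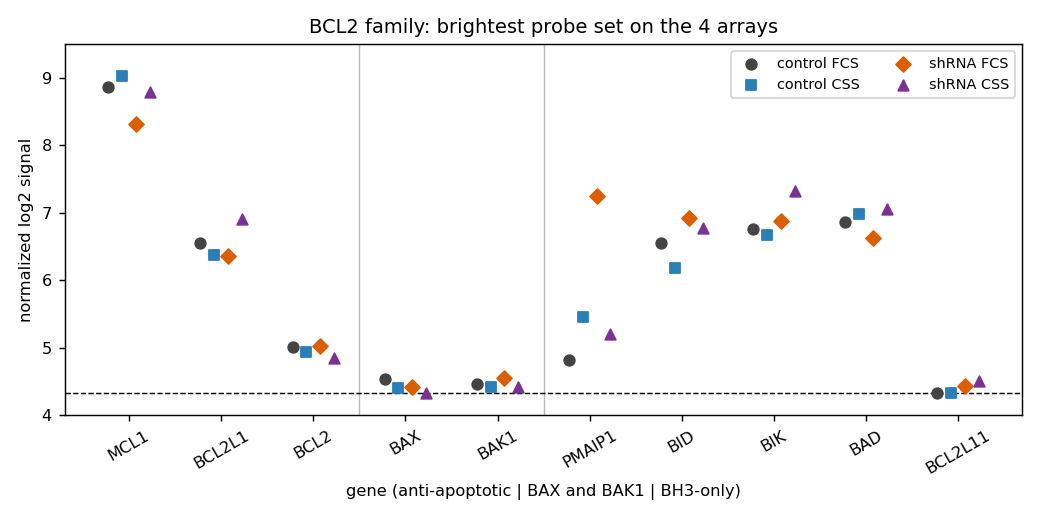
Normalized log2 signal (vertical axis) of the brightest probe set of each of the 10 genes (horizontal axis, grouped by role), with 1 symbol per array and the floor of 20 (log2 4.32) as a dashed line. PMAIP1 stands out in shRNA FCS at 7.25, against 4.82 to 5.45 on the other 3 arrays, while BAX, BAK1 and BCL2L11 lie at or near the floor.

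PMAIP1 by probe set 204285_s_at read 4.82 in control FCS, 5.45 in control CSS, 7.25 in shRNA FCS and 5.21 in shRNA CSS, or 28.2, 43.8, 153 and 37.0 as linear signal. Only the shRNA FCS array was high, and the other 3 lay low on the scale. The change with shRNA in FCS was 2.44 on the log2 scale, the third largest rise among 7980 genes, where the 1000 probe sets of nearest signal had a robust SD of 0.24 for the same pair of arrays. In control cells CSS gave 0.64, against a robust SD of 0.26. With shRNA and CSS together the change from control FCS was 0.39, against a robust SD of 0.93. It was 0.20 averaged over probe sets, 0.35 as deposited, 0.63 with a common median and 0.94 with a minimum signal of 100. How near this array lies to control FCS is thus not settled. From shRNA FCS to shRNA CSS PMAIP1 fell by 2.04 on the log2 scale, the 14th largest fall among 8733 genes, with a robust SD of 0.91. This fall and the rise of 2.44 rest on the same reading of 7.25 in shRNA FCS. The second probe set, 204286_s_at, lay at the floor on both control arrays and in shRNA CSS and read 5.84 in shRNA FCS, at least 1.51 above control FCS on the log2 scale. Both PMAIP1 probe sets were high on the same single array. However, 204286_s_at reached a signal of 20 only there and was kept through that array, so its peak is no separate support.

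The 2 changes with shRNA, in FCS and in CSS, rest on different pairs of arrays. For PMAIP1 they were 2.44 in FCS and -0.24 in CSS, a difference of -2.68, the most negative among the 6966 genes above the floor on all 4 arrays. This difference holds the same shRNA FCS reading as the rise in FCS, so it is no separate support. The PMAIP1 difference was the most negative also with the values as deposited (-2.97 among 7062 genes) and with arrays set to a common median (-2.68 among 7048 genes). It was the third most negative when probe sets of a gene were averaged (-2.10 among 7025 genes). With a floor of 100 it was -0.61 and had no rank, because PMAIP1 was not above that floor on all arrays. With a minimum signal of 100 the changes were 2.39 in FCS and 0.42 in CSS. Differences of at least 2-fold were found in 904 of the 6966 genes, 13.0%, and their robust SD was 0.533. Among the 64 genes at least 2-fold higher with shRNA in FCS, 62 had a fold in CSS, 46 of them higher and 16 lower, with a median of 0.67, and 22 were at least 2-fold higher there too. PMAIP1 was among the 16, but its CSS change lay within the robust SD of 0.88 and had no settled sign, at -0.37 as deposited, -0.07 with a common median and 0.42 with a minimum signal of 100. The shRNA target FBXW11 changed by -3.00 in FCS and -3.51 in CSS by its brightest probe set. Its other probe set changed less, by -1.34 in FCS and -0.95 in CSS, and read 4.65 and 4.69 with the shRNA, near the floor. The probe sets of FBXW11 thus differed in which serum had the larger fall. How far the wide spread of the shRNA CSS array enters the PMAIP1 difference was not tested.

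The genes with the most similar pattern to PMAIP1, by Euclidean distance over the 3 log2 changes against control FCS among 6965 genes, were SH3GL3 at 0.790, MAN1A1 at 0.792, MDFIC at 0.972, FLRT2 at 0.994 and SFN at 1.10. SH3GL3 changed by 0.34 in CSS, 2.30 with shRNA and 1.11 with both. MAN1A1, a Golgi mannosidase of N-glycan trimming, changed by 0.08, 2.02 and 0.02, so that it was near its control level with both. SFN, the 14-3-3 sigma protein, changed by -0.05, 1.81 and 0.98.

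MCL1, the principal partner of NOXA, was read by several probe sets that did not move together. Probe set 200797_s_at read 8.87 in control FCS, 9.03 in control CSS, 8.32 in shRNA FCS and 8.79 in shRNA CSS. It was lowest in shRNA FCS, the array on which PMAIP1 was highest, by -0.55 on the log2 scale against control FCS, with a robust SD of 0.32. Probe set 200798_x_at read 7.62, 7.09, 7.86 and 6.87 in the same order, and was highest in shRNA FCS and lower in both CSS arrays. Probe set 200796_s_at read 5.72, 4.81, 5.95 and 5.93, low in control CSS alone, and its rise of 1.12 from control CSS to shRNA CSS was the one 2-fold change of a member other than PMAIP1. Probe set 214057_at was above the floor in control CSS alone, at 4.53, and 214056_at was under 20 on all 4 arrays. The probe sets of MCL1 differed in direction in each of the 5 comparisons, and averaged over them the change with shRNA in FCS was -0.02 in place of -0.55. The suffix x in a probe set's name marks probes that can bind other transcripts.

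**Figure D2:**
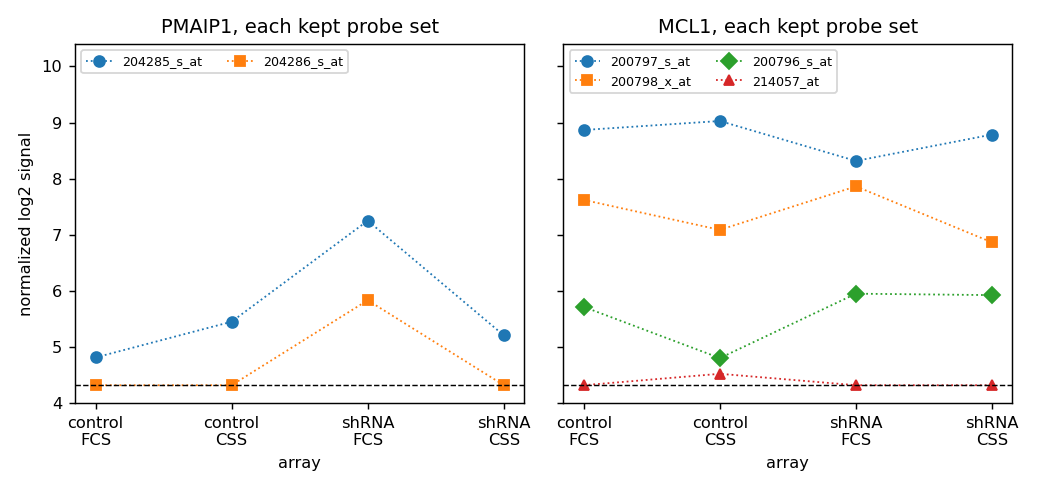
Normalized log2 signal (vertical axis) on the 4 arrays (horizontal axis) for each kept probe set of PMAIP1 (left) and MCL1 (right), with the floor dashed and dotted lines that only join the points of a probe set. Both PMAIP1 probe sets peak in shRNA FCS, at 7.25 and 5.84, whereas the MCL1 probe sets run in different directions. The lower PMAIP1 probe set passed the filter only through shRNA FCS.

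BCL2L1 (BCL-XL) by probe set 212312_at read 6.55 in control FCS, 6.37 in control CSS, 6.36 in shRNA FCS and 6.90 in shRNA CSS. The first 3 arrays were close and shRNA CSS was the highest, by 0.36 against control FCS. As deposited this probe set was highest in control FCS, at 6.65 against 6.50 in shRNA CSS. The other 2 probe sets went down there, from 5.44 to 4.87 for 206665_s_at and from 5.26 to 4.76 for 215037_s_at, so the combined condition had no common direction. All 3 were lower than control FCS in control CSS, with changes from -0.18 to -0.43, and in shRNA FCS, with changes from -0.15 to -0.26. BCL2 itself was near the floor: 207004_at ranged from 4.84 to 5.02 and 207005_s_at from 4.58 to 4.70 over the 4 arrays, and 203684_s_at and 203685_at were under 20 on all of them.

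The effectors, which form the pores in the mitochondrial membrane, gave little signal. BAX by 211833_s_at read 4.54, 4.40, 4.41 and the floor in control FCS, control CSS, shRNA FCS and shRNA CSS, and 208478_s_at read 4.40, 4.45, 4.36 and the floor. BAK1 by 203728_at ranged from 4.41 to 4.56. All 3 probe sets lay so close to the floor on every array that they carry no statement on change.

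Among the remaining BH3-only members, BID, which links caspase-8 to mitochondria, read 6.55 in control FCS, 6.18 in control CSS, 6.93 in shRNA FCS and 6.77 in shRNA CSS by 211725_s_at. It was thus higher with shRNA than without in both sera, by 0.37 in FCS (robust SD 0.30) and 0.59 in CSS (robust SD 0.65). Its second probe set, 204493_at, read 4.80, 4.69, 5.05 and the floor, higher with shRNA in FCS and lower in CSS. BIK, a BH3-only protein of the endoplasmic reticulum, read 6.76, 6.66, 6.88 and 7.32 by its single probe set 205780_at, the highest in shRNA CSS. As deposited BIK was highest in shRNA FCS, at 7.02 against 6.93 in shRNA CSS. BAD, which is held inactive by phosphorylation, read 6.86, 6.98, 6.63 and 7.05 by 209364_at and 6.25, 6.26, 6.11 and 6.14 by 1861_at, with both lower in shRNA FCS than in control FCS. BCL2L11 (BIM) by 208536_s_at lay at the floor on both control arrays and read 4.43 in shRNA FCS and 4.51 in shRNA CSS, and 222343_at left the floor in shRNA FCS alone, at 4.48.

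**Figure D3:**
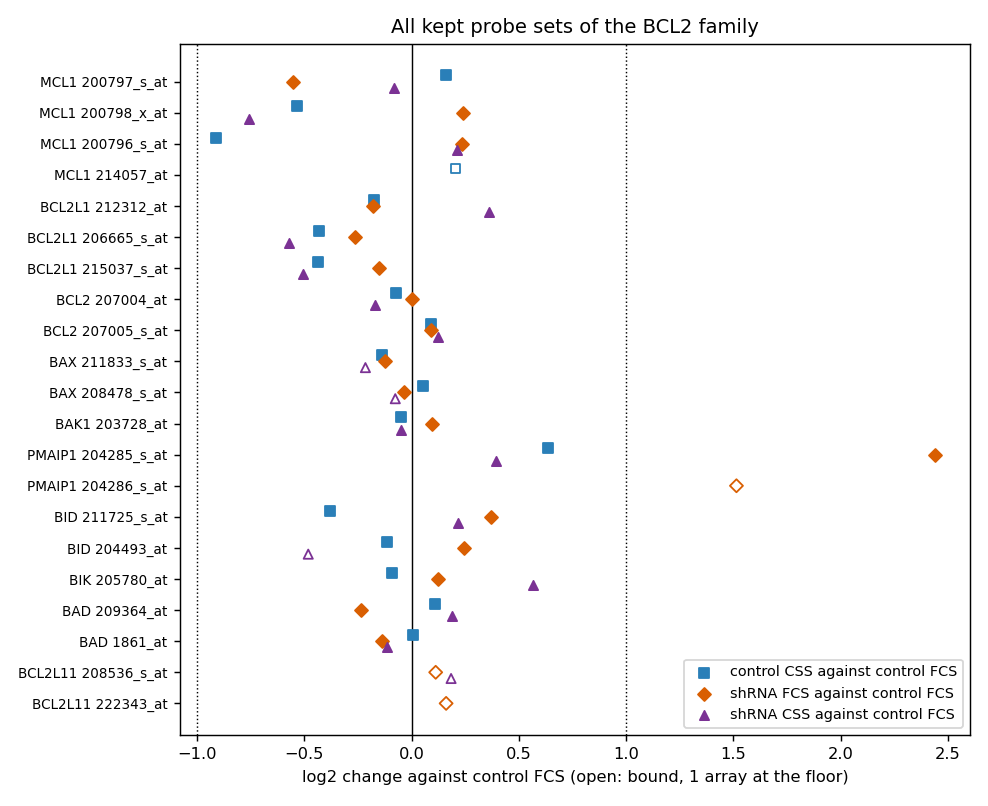
Log2 change against control FCS (horizontal axis) of the 21 kept probe sets (vertical axis) for control CSS, shRNA FCS and shRNA CSS, with open symbols where 1 array was at the floor (a bound) and dotted lines at 2-fold. The 3 comparisons share the control FCS array. The PMAIP1 probe sets in shRNA FCS, at 2.44 and at least 1.51, are the points outside the dotted lines.

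Counted by gene, 0 of 9 members with a fold changed at least 2-fold in control CSS against control FCS, where 0.301% of all genes did (median of members -0.07, of all genes 0.02). In shRNA FCS against control FCS 1 of 10 did, PMAIP1, against 1.2% of all genes (medians 0.05 and 0.00). In shRNA CSS against control FCS 0 of 10 did, although 14.9% of all genes did (medians 0.19 and 0.03). In shRNA CSS against control CSS the count was 0 of 10 with 14.5% of all genes (medians 0.04 and 0.01), and in shRNA CSS against shRNA FCS it was 1 of 10, PMAIP1, again with 14.5% of all genes (medians -0.01 and 0.03). The first 3 of these comparisons share the control FCS array, and both PMAIP1 calls rest on the same shRNA FCS array. The 8 members above the floor on all arrays had the same direction of change with shRNA in FCS and in CSS in 4 cases, against 57.5% of all such genes.

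An additive limma model of serum and shRNA over the 4 arrays, with 1 residual degree of freedom, was the only test the design allowed. Its two-sided adjusted p (Benjamini-Hochberg, limma) passed 0.05 for 0 of the 10 members for the shRNA, against 3.89% of all genes, and for 0 of 10 for CSS, against 2.55%. At an unadjusted p under 0.05 limma gave 2 members for the shRNA, PMAIP1 and MCL1, and 1 for CSS, MCL1, where 12.6% and 12.7% of all genes passed. Without the mean-variance trend limma called no gene for either effect. PMAIP1 had a main effect of the shRNA of 1.10 (SE 0.556, limma adjusted p = 0.391, range over the alternatives 0.0493 to 0.734), which averages the values 2.44 and -0.24. The lowest limma adjusted p of that range came with a minimum signal of 100, which PMAIP1 reached only in shRNA FCS. MCL1 had -0.40 (limma adjusted p = 0.0793, range 0.0718 to 0.989). The model has no term for a difference between the sera in the change with shRNA. Such differences set the SE only through the trend over all genes. The difference of a gene itself did not enter its SE.

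The scaling decided the sign of several combined changes. As deposited, the shRNA CSS array had a narrower spread, with an interquartile range of 2.07 against 2.69 to 2.74, and the median change of all genes in shRNA CSS against control FCS was -0.16, against 0.03 after quantile normalization and 0.11 with a common median. BCL2L1, BAK1, BID and BAD had the opposite sign in that comparison with the values as deposited: BCL2L1 -0.15 in place of 0.36, BAK1 0.15 in place of -0.05, BID -0.28 in place of 0.22 and BAD -0.35 in place of 0.19. BIK was 0.06 in place of 0.57. Relative to the median of the 1000 probe sets of nearest signal, BIK lay at 0.66 normalized and 0.72 as deposited, BCL2L1 at 0.46 and 0.44, BID at 0.32 and 0.33 and BAD at 0.26 and 0.29. The 2 scalings were further apart for PMAIP1 at 0.51 and 0.76 and, near the floor, for BAX at -0.43 and -0.81 and BAK1 at -0.30 and -0.12. PMAIP1 was 0.39 and 0.35 in this comparison, and in FCS with shRNA 2.44 and 2.60. For shRNA CSS against control CSS the 2 scalings gave BCL2L1 and BAD opposite signs. Against shRNA FCS they did so for BAK1, BIK and BAD.

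The rest of the apoptosis machinery was read from 7 lists of genes. From each list the genes named are up to 3 with the largest change in shRNA CSS against control FCS. A deviation on that array is therefore part of how they were chosen. Against control FCS, 0.301% of all genes changed at least 2-fold in control CSS, 1.2% in shRNA FCS and 14.9% in shRNA CSS. Limma called 3.89% of all genes for the shRNA and 2.55% for CSS. Of 15 other BCL2 family genes 9 were kept, with 0 at least 2-fold changed in control CSS or shRNA FCS against control FCS and 1 higher in shRNA CSS, the BAX-like BOK, which read 4.67, 4.64, 4.52 and 5.91 in control FCS, control CSS, shRNA FCS and shRNA CSS. BECN1, the autophagy protein that BCL2 binds, read 7.42, 7.51, 7.14 and 6.54. BCL2L13, a mitochondrial family member, read 5.16, 5.22 and 5.15 and then the floor. BOK, BECN1 and BCL2L13 each deviated most in shRNA CSS, the array by which they were chosen. The 10 mitochondrial and apoptosome genes were all kept, with 0 at least 2-fold changed in any comparison. Their voltage-dependent anion channel VDAC3 read 10.25, 9.90, 10.21 and 9.77, lower in both CSS arrays, and was their 1 gene called by limma for CSS (adjusted p = 0.00524). VDAC1 read 7.68, 7.34, 7.78 and 7.19, and the protease HTRA2 6.94, 7.03, 6.73 and 6.12.

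Of 7 caspases 4 were kept, with 0 at least 2-fold changed against control FCS and none called. Executioner CASP6 read 7.74, 7.71, 7.36 and 7.92, the inflammatory CASP4 5.81, 5.65, 5.80 and 5.14, and CASP2 left the floor in shRNA CSS alone, at 5.02. Of 6 inhibitors of apoptosis 2 were kept. BIRC5 (survivin, which also serves mitosis) read 9.08, 8.76, 9.78 and 9.39, higher with shRNA in both sera, and was called by limma for the shRNA (adjusted p = 2.25e-06), while BIRC2, a ubiquitin ligase that restrains cell death signaling, read 8.61, 8.78, 8.65 and 8.59. Of 12 death receptor genes 8 were kept, and none was called by limma. In shRNA CSS against control FCS 2 were at least 2-fold lower, CFLAR and FADD, where 14.9% of all genes changed at least 2-fold. CFLAR, the inhibitor of caspase-8, read 5.97, 5.62, 5.80 and 4.55, and the adaptor FADD read 5.77, 5.70, 5.40 and 4.70. TRADD, the adaptor of TNF receptor 1, read 6.57, 6.67, 6.23 and 7.55. CFLAR and FADD were lowest and TRADD highest on the shRNA CSS array, by which they were chosen.

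Of 11 transcription factors that act on BH3-only genes 9 were kept, and 1 of them, ATF3, a stress-induced factor, was at least 2-fold higher in control CSS and in shRNA FCS. In these comparisons 0.301% and 1.2% of all genes changed at least 2-fold. ATF3 read 7.44 in control FCS, 8.63 in control CSS, 8.76 in shRNA FCS and 8.24 in shRNA CSS. It was lowest in control FCS, with changes of 1.19, 1.32 and 0.80, and its limma adjusted p for the shRNA was 0.0862. MYC read 9.51, 9.95, 9.94 and 10.02, and TP73 left the floor in shRNA CSS alone, at 4.95. All 13 genes of MCL1 and BH3 protein turnover were kept. In shRNA FCS against control FCS 1 was at least 2-fold lower, the target FBXW11, where 1.2% of all genes changed. In shRNA CSS 2 were lower, FBXW11 and MAPK9, and 1 higher, TRIM17, where 14.9% of all genes changed. MAPK9, the kinase JNK2, read 7.84, 7.72, 7.14 and 6.41, lower with shRNA in both sera, and with FBXW11 made the 2 calls of limma for the shRNA (adjusted p = 0.00426 and 1.69e-12). TRIM17, a ubiquitin ligase of MCL1, read 4.41, 4.35, 4.46 and 5.84, high only in shRNA CSS, the array by which it was chosen.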

How the data were processed

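Total RNA of LAPC4 cells was labelled and hybridised to 4 Affymetrix arrays, 1 per condition, grouped by the sample titles. The authors deposited 1 table of log2 signals for 22277 probe sets. The submitters' processing notes name MAS5, and the study's methods add present calls, a signal of at least 20 and quantile normalization, but the deposited log2 values were neither filtered nor quantile normalized and hold no present calls. Probe sets were named through the platform annotation with symbols updated from RefSeq: 19064 had 1 gene, 1043 several (not used) and 2108 none, and 62 were array controls.

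Probe sets of at least 20 on 1 array (15678) were quantile normalized as log2 values, after which lower signals took a floor of 20. The brightest probe set stood for a gene (9193 genes). A gene at the floor on both arrays had no fold, and on 1 array a bound. Changes of at least 2-fold were counted over 5 comparisons without p-values. Python 3.11.15 with numpy 2.4.6, pandas 2.3.3 and matplotlib 3.10.9 was used, and limma 3.58.1 (R 4.3.3, lmFit and eBayes with trend) fitted an additive model to the 8858 genes above the floor. Its prior degrees of freedom were infinite, so an SE is that of the trend at the gene's mean signal. Robust SDs are 1.4826 times the median absolute deviation over 1000 probe sets of nearest mean signal. Scripts were tested on simulated data. The low number of arrays limits the precision. P-values set a change against the residual spread of genes of like signal, not against a gene's own residual or replicates.

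The named genes were the 10 members, BTRC and FBXW11, up to 3 genes per list with the largest change in shRNA CSS against control FCS, and the 5 genes nearest to PMAIP1. Members and lists were chosen with earlier results of these data known. Alternatives were limma without trend, a 1.5-fold threshold, a minimum signal of 100 or none, a floor of 100 or none, averaging the probe sets of a gene, and either no normalization or one to equal medians. List genes without a probe set of 1 gene were not analysed here.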

Additional observations from a re-analysis of the deposited data

Results flagged for a closer look

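PMAIP1 had log2 changes with β-TrCP shRNA of 2.44 in FCS and -0.24 in CSS, and stands out by the difference of -2.68 between them, with the measured signs opposite. The CSS change lay within its robust SD of 0.88 and ranged from -0.37 with the values as deposited to 0.42 with a minimum signal of 100, so it gives no direction in CSS. The difference was not tested, because each of the 4 values is from 1 array.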

How the results depend on the processing

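The count of 1 member changed at least 2-fold, PMAIP1, in shRNA FCS against control FCS and in shRNA CSS against shRNA FCS held with the values as deposited, a common median, no floor, no filter, a minimum signal of 100 and the mean over probe sets. Both comparisons hold the same shRNA FCS array. With a floor of 100 the count was 0 in both, because the low PMAIP1 values were raised to that floor and the changes became 0.61 and -0.61. At 1.5-fold the count was 1 in control CSS against control FCS (PMAIP1), where 374 of 7978 genes changed. For shRNA CSS against control CSS it was 2 (BID and BIK), where 2892 of 8731 genes changed. As deposited these BID and BIK changes were 0.07 and 0.12 on the log2 scale. The limma count for the shRNA was 1 (PMAIP1, adjusted p = 0.0493) with a minimum signal of 100 on 1 array. Fewer genes were tested there, and 414 of 3980 were called. PMAIP1 reached 100 only in shRNA FCS, at 153, so it passed this filter through its high array alone. Its main effect of the shRNA was 1.41 with that setting, in place of 1.10. Normalization without the shRNA CSS array, chosen after seeing the data, left the counts at 0 and 1. Of 316 recomputed member changes, 286 moved by less than the robust SD and 30 by more, and none of at least 2-fold changed sign, while some smaller ones did. Without the filter all member changes equalled the main ones, and without the floor only those of BCL2L11 and BAX differed. Neither setting was thus a check of PMAIP1. The values that these settings left unchanged are counted among the 286, so that count overstates how much was checked. The robust SD was wide in comparisons with shRNA CSS: BCL2L1, 0.36 and -0.15 as deposited, is among the 286 (robust SD 0.67). The direction of MCL1 in CSS depended on the probe set: 0.16 by the brightest and -0.27 by the mean.

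Over all genes, limma called 345 for the shRNA and 226 for CSS, against 43 and 23 as deposited, 161 and 73 with a common median and 0 and 0 without trend. The 2-fold counts in the order of the 5 comparisons were 24, 96, 1293, 1266 and 1270, against 13, 47, 102, 85 and 71 with a floor of 100 and 374, 523, 3002, 2892 and 2924 at 1.5-fold. With a minimum signal of 100 the last 3 were 261, 199 and 202. In shRNA CSS against control FCS 692 genes were higher and 601 lower, against 384 and 1095 as deposited. Signals near the floor limit BAX, BAK1, BCL2 and BCL2L11. No paired analysis was possible because each condition had 1 array.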
